A study of Mus musculus with 30 samples.

Results

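Nitric oxide signalling runs from a synthase to a second messenger and its targets. NOS1, the neuronal nitric oxide synthase, makes nitric oxide from arginine, and NOS1AP is an adaptor protein that binds NOS1. Nitric oxide activates soluble guanylate cyclase, a pair of an alpha subunit (Gucy1a1) and a beta subunit (Gucy1b1), which makes cyclic GMP. Cyclic GMP activates the protein kinases of Prkg1 and Prkg2, and the phosphodiesterase of Pde5a breaks it down. These 7 genes, of 21887 protein-coding genes in the RefSeq table of GRCm38.p6, were taken by name, each as its annotated span with 1 kb added to each side.

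The cells were NOS1+ N1E115 cells, a mouse neuroblastoma line, so both O2 levels share 1 line that the labels call NOS1+, without saying how that state was reached. Chromatin immunoprecipitation and sequencing was done after 3 days at 4% O2, the low level, or at 20% O2, with 2 libraries per level for each of 6 antibodies, 24 libraries in all; 6 inputs are not analysed here. The antibodies were against RNA polymerase II (POLR2), its forms phosphorylated at serine 5, found mostly near gene starts (POLR2S5), or at serine 2, found along transcribed bodies (POLR2S2), CTCF, which marks insulators, RAD21, a subunit of cohesin, and histone H3 acetylated at lysine 9 (H3K9ac), a mark of active promoters and enhancers. Libraries 1 and 2 of each group were sequenced in different rounds, and every list of values below gives library 1 and then library 2 of a level. An island is a broad stretch of polymerase signal with its read count, and a peak is a narrow call with a −log10 q score; both are the authors' own. Coordinates are mm10.

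Islands held 5.93 and 10.17 M (mega) reads for POLR2 at 4% O2, against 2.06 and 8.6 M at 20% O2. The figures were 10.98 and 12.01 against 5.93 and 12.37 M for POLR2S5, and 10.43 and 16.6 against 4.87 and 9.7 M for POLR2S2. The 20% O2 library of round 1 therefore held the fewest island reads for each form. Sympathetic neuroblast genes carried H3K9ac at a gene end in 14 of 15 cases in each of the 4 libraries, beside 52.7% and 56.2% of all genes at 4% O2, against 53.5% and 55.8% at 20% O2. Endothelial genes carried it in 0 and 0 of 9 cases at 4% O2, against 0 and 1 of 9 at 20% O2. Macrophage and microglia genes carried it in 2 and 3 of 12 cases at 4% O2, against 2 and 3 at 20% O2, and smooth muscle genes in 0 and 2 of 6 cases, against 0 and 2. POLR2S5 islands lay there at 14 and 14 sympathetic genes at 4% O2, against 11 and 14 at 20% O2. The share of all genes was 56.8% and 57.7% at 4% O2, against 51.7% and 59.4% at 20% O2. Endothelial genes had such islands in 1 and 1 cases at 4% O2, against 0 and 0 at 20% O2. Macrophage and microglia genes had them in 2 and 3 cases, against 3 and 4, and smooth muscle genes in 3 and 2, against 1 and 2.

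The promoters of 3 members show how differently the starts of these genes were occupied, and the sequences are those of RefSeq on GRCm38.p6, from 250 bases before to 50 bases after the annotated start. Capitals mark a CTCF core word, which is here the word AGGGGGC, the word AGGTGGC, the word AGAGGGC or the word AGATGGC on either strand.
Nos1, chr5:117866589-117866888, plus strand: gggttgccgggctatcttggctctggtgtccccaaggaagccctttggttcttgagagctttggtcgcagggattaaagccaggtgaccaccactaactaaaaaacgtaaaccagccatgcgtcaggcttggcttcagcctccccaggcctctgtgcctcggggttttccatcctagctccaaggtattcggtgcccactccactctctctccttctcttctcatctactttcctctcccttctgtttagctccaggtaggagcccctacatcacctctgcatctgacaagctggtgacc
Pde5a, chr3:122728908-122729207, plus strand: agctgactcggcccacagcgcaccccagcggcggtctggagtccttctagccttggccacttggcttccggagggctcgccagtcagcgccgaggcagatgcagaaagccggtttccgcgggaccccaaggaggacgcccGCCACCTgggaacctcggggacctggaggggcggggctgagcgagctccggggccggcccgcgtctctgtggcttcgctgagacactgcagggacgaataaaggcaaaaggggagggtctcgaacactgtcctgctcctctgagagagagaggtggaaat
Gucy1b1, chr3:82074662-82074961, minus strand: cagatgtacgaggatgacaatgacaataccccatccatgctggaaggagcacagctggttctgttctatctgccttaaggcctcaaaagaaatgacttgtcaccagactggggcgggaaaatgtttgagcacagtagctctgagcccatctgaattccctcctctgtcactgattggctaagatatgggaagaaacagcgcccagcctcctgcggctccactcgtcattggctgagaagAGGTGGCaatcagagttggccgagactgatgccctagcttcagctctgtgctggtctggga

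The Pde5a promoter held 1 core word, 110 bases before the start, and lay under a CTCF peak in all 4 libraries, with scores of 543.3 and 57.2 at 4% O2, against 350.2 and 180.0 at 20% O2. The Gucy1b1 promoter held 1 core word 11 bases before the start, but no CTCF peak reached the window, and the nearest CTCF peak lay 0.82 and 0.07 kb away at 4% O2, against 0.85 and 0.79 kb at 20% O2. The Nos1 promoter held no core word, and the nearest CTCF peak lay 26.64 and 26.75 kb away at 4% O2, against 24.64 and 29.03 kb at 20% O2. Of 32851 promoters of the same length, 27.6% held at least 1 of the words, so a match is a description of the letters and not a binding site. The word ACGTG and the word GCGTG, cores of the hypoxia response element, were found on neither strand of these 3 windows and in 43.8% of all promoters. Among the promoters not printed, that of Nos1ap at chr1:170589800-170590099 held 1 such word, and that of Gucy1a1 at chr3:82145024-82145323 held 3. The other listed promoters of Nos1ap, Gucy1a1 and Prkg1 held none, and no promoter was listed for Prkg2. The windows held 6 CpG pairs for Nos1, 23 for Pde5a and 6 for Gucy1b1, beside a median of 7 over all promoters.

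Nos1 lies on the plus strand at chr5:117866839-117958840, 92.0 kb long. Its annotated start carried no H3K9ac, POLR2 or POLR2S5 call in these lists, while its body carried elongating polymerase and a dense run of CTCF peaks at both O2 levels. A POLR2S2 island did reach the promoter window in library 2 of each level and in neither library 1. At 4% O2 this island held 283 reads over -9.2 to -0.2 kb from the start, and the next held 2419 over 0.6 to 64.2 kb. At 20% O2 a single island held 2277 reads over -3.8 to 67.0 kb. These are counts of whole islands and not of the promoter window. No H3K9ac peak and no POLR2 or POLR2S5 island reached the promoter window in any of the 4 libraries, and the nearest H3K9ac peak lay 24.87 and 23.03 kb away at 4% O2, against 24.79 and 23.5 kb at 20% O2.

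**Figure D1:**
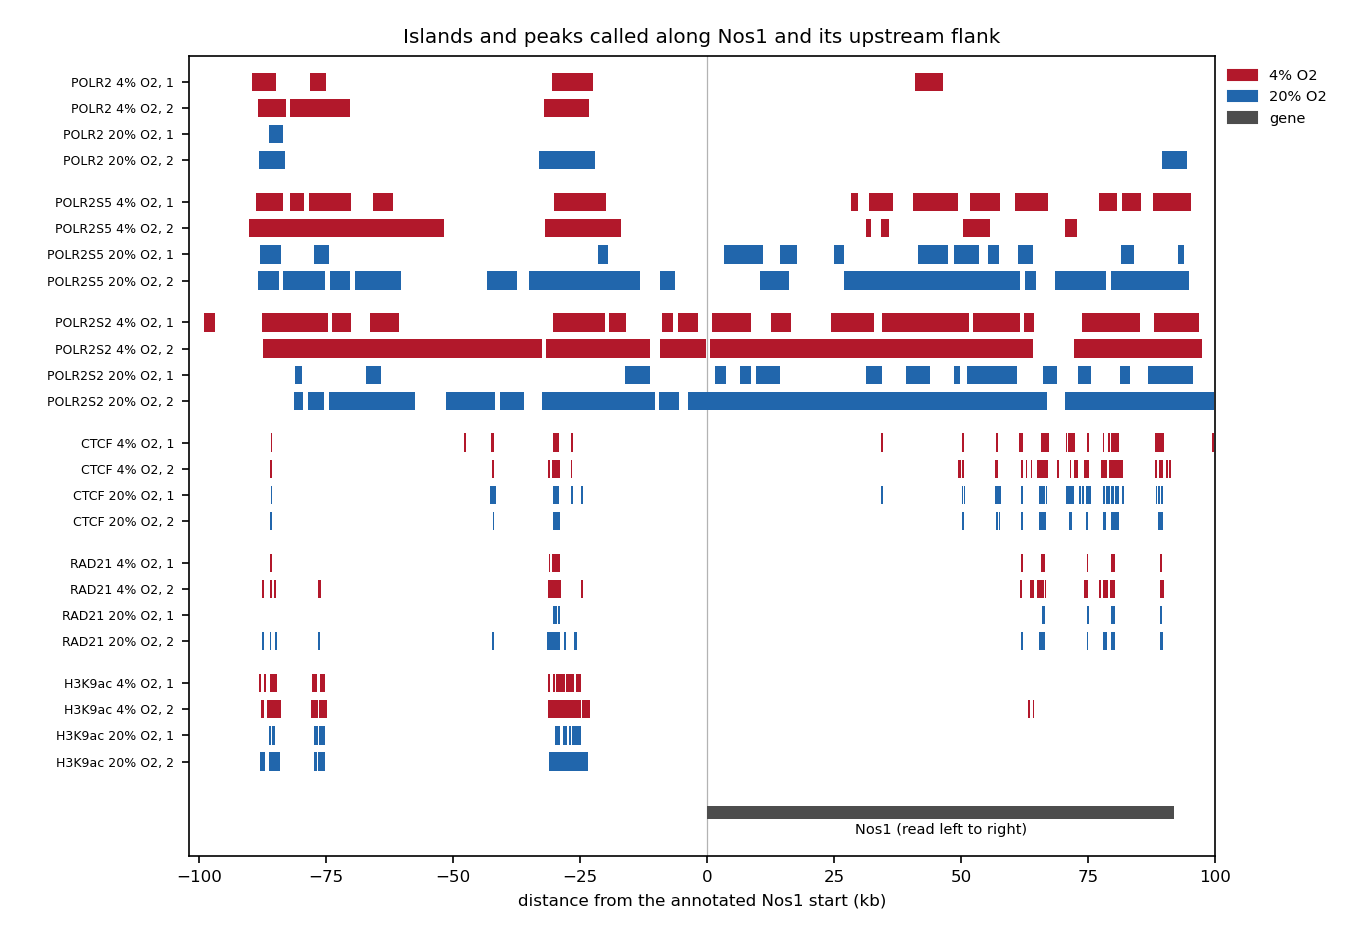
Islands (POLR2, POLR2S5, POLR2S2) and peaks (CTCF, RAD21, H3K9ac) called in each library, 1 row per library, against the distance in kb from the annotated Nos1 start; bars are drawn at least 0.35 kb wide. CTCF and RAD21 peaks inside the gene lie past its midpoint in every library but for 1 CTCF peak at 34.3 kb in each library of round 1, and H3K9ac lies upstream of the gene but for 2 peaks inside it in 4% O2 library 2.

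Few POLR2 islands were called in Nos1. Its islands held 72 and 0 reads at 4% O2, against 0 and 102 reads at 20% O2. Each level thus had 1 library with a single island and 1 with none, so no ratio was taken. POLR2S5 islands over Nos1 held 871 and 248 reads at 4% O2, against 573 and 1872 reads at 20% O2. They covered 42.2% and 11.1% of the gene at 4% O2, against 34.1% and 70.7% at 20% O2. Scaled to the library, as CPM (the gene's island reads divided by the library's sum over the genes tested, in M) after TMM normalisation, a scaling by the trimmed mean of gene ratios, POLR2S5 stood at 51.1 and 11.3 at 4% O2, against 61.7 and 86.9 at 20% O2, and the levels did not overlap. The log2 ratio of 4% over 20% O2 was -1.25 ± 0.76 (SE), with edgeR's quasi-likelihood adjusted p = 0.983, and it was -0.27 in round 1 and -2.94 in round 2. Of all genes tested for POLR2S5, 2.41% had a lower ratio than Nos1, and the difference did not pass the test. Without 4% O2 library 2 the ratio was -0.63, and without 4% O2 library 1 it was -2.71. In bulk chromatin, more cells with polymerase on a gene and more polymerase per cell cannot be told apart.

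POLR2S2, the elongating form, covered most of Nos1 in 3 of 4 libraries. Its islands held 1733 and 3544 reads at 4% O2, against 892 and 3286 reads at 20% O2, over 69.6% and 90.7% of the gene, against 44% and 96.1%. Over the 4945 genes of at least 50 kb, the median cover was 1.97% and 3.17% at 4% O2, against 0% and 2.96% at 20% O2. More cover than Nos1 was found in 13.3% and 12.7% of these long genes at 4% O2, against 9.06% and 7.81% at 20% O2. Scaled POLR2S2 reads were 93.3 and 107 CPM at 4% O2, against 108 and 194 at 20% O2. These levels lay apart by a narrow margin and overlapped when scaled to total island reads alone, at 166 and 214 against 183 and 339 CPM. The log2 ratio was -0.60 ± 0.44 (SE; edgeR adjusted p = 0.863), with -0.22 in round 1 and -0.86 in round 2. Without 20% O2 library 2 it was -0.05, and without 20% O2 library 1 it was -0.95. Of the 9364 genes with a POLR2S2 island in all 4 libraries, 2.62% had POLR2 islands in 2 libraries as Nos1 did, and 78.4% had them in all 4.

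Along the gene, the cover of POLR2S5 and that of POLR2S2 were highest in the middle, or tied there, in every library. With Nos1 cut into 3 equal parts, POLR2S5 islands covered 4.57% and 0% of the part next to the start at 4% O2, against 42.4% and 31% at 20% O2. The middle part was covered to 65.8% and 26.1% at 4% O2, against 43% and 100% at 20% O2, and the last part to 56.3% and 7.17%, against 17% and 81.1%. The POLR2S5 cover next to the start was therefore lower in both 4% O2 libraries than in both 20% O2 libraries. The other parts overlapped between levels. The contrast next to the start was noticed in the data and was not tested, and the share of all genes with such a contrast was not computed. For scaled POLR2S5 reads of whole genes, a different measure, both 4% O2 libraries lay below both 20% O2 libraries in 14.2% of genes. POLR2S2 covered the part next to the start to 58.4% and 98.2% at 4% O2, against 29.3% and 100% at 20% O2. It covered the middle part to 92.8% and 100% at 4% O2, against 61.3% and 100% at 20% O2. Its cover of the last part was 57.6% and 73.9% at 4% O2, against 41.2% and 88.3% at 20% O2. An island of POLR2S2 reached within 500 bp of the start in library 2 of each level and in neither library 1. The long noncoding RNA gene Gm30360 overlaps the Nos1 start and Gm26995 lies inside the gene. Islands that overlap them cannot be assigned to 1 gene, since the library kit is not stated to keep strand. The POLR2S5 islands at 3.4 to 11.0 kb in 20% O2 library 1 and at 10.4 to 16.2 kb in library 2 are among those over Gm30360.

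CTCF peaks numbered 20 and 29 in Nos1 at 4% O2, against 27 and 15 at 20% O2. Round 1 had fewer at 4% O2 and round 2 had more, so the counts overlapped. Per 100 kb, this was 21.3 and 30.9 peaks at 4% O2, against 28.7 and 16 at 20% O2, beside medians of 5.51 and 3, against 5.65 and 3.03, over genes of at least 50 kb. Higher densities were found in 3.7% and 0.324% of those genes at 4% O2, against 0.87% and 2.12% at 20% O2. Merged over the 4 libraries the peaks made 34 regions, of which 9 were called in all 4 and 22 in a single library; 13 of those 22 were calls of 4% O2 library 2. All but 1 of the 34 regions started past the midpoint of the gene at 46.0 kb.

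The 9 CTCF regions called in all 4 libraries began 50.1, 56.7, 61.8, 65.8, 71.0, 74.3, 77.8, 79.1 and 88.3 kb from the start. Scores of different libraries share no scale, so each score was turned into a percentile among the 40192 CTCF regions that all 4 libraries shared. The region at 79.1 to 81.1 kb, chr5:117945970-117947969, stood at percentiles of 88.5 and 90.1 at 4% O2, against 85.5 and 77.1 at 20% O2. The region at 65.8 to 67.4 kb, chr5:117932645-117934193, stood at 89.0 and 81.5 at 4% O2, against 83.5 and 67.7 at 20% O2. These were strong sites at both levels, and the region at 77.8 to 78.7 kb was weak, with 8.4 and 25.3 at 4% O2, against 16.3 and 20.2 at 20% O2. The region at 71.0 to 72.1 kb, which lies in the long noncoding gene Gm26995, stood at 73.2 and 57.0 at 4% O2, against 69.4 and 37.6 at 20% O2.

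Within rounds, the percentile was higher at 4% O2 in both rounds for 3 of the 9 CTCF regions and lower in both for 1, the region at 61.8 to 62.1 kb with differences of -16.7 and -10.3 points. Over all shared CTCF regions, 27.5% were higher in both rounds and 27.3% lower in both, so the counts at Nos1 are near that background. The median difference was -1.47 points in round 1 and 15.16 in round 2, beside -0.1 and 0.18 over all shared regions. The region at 88.3 to 89.9 kb differed most between rounds, by -11.8 and 26.4 points.

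RAD21 lay at a subset of these sites. Its peaks numbered 5 and 14 at 4% O2, against 4 and 8 at 20% O2, none before 61.7 kb. Of 11 merged regions, 4 were called in all libraries, at 65.0 to 66.7, 74.6 to 75.1, 79.4 to 80.3 and 89.1 to 89.8 kb, and all 4 overlapped a CTCF region of all libraries. Over the whole genome, 98.3% of such RAD21 regions overlapped such a CTCF region, and 51.7% of the CTCF regions overlapped RAD21, beside 4 of 9 in Nos1. The region at 79.4 to 80.3 kb, chr5:117946244-117947174, had percentiles of 87.9 and 87.9 at 4% O2, against 86.7 and 57.4 at 20% O2, among 21298 shared regions. It was the strongest of the 4 in every library but 20% O2 library 2, where the region at 65.0 to 66.7 kb stood at 61.3. Of the 4, 1 was higher at 4% O2 in both rounds and 0 were lower in both, beside 29.1% and 29.9% of all shared RAD21 regions. H3K9ac had 0 and 2 peaks in Nos1 at 4% O2, against 0 and 0 at 20% O2, and the 2 peaks, at 63.3 and 64.1 kb, had scores of 3.4 and 6.1, near the lowest score of 2 in the lists.

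**Figure D2:**
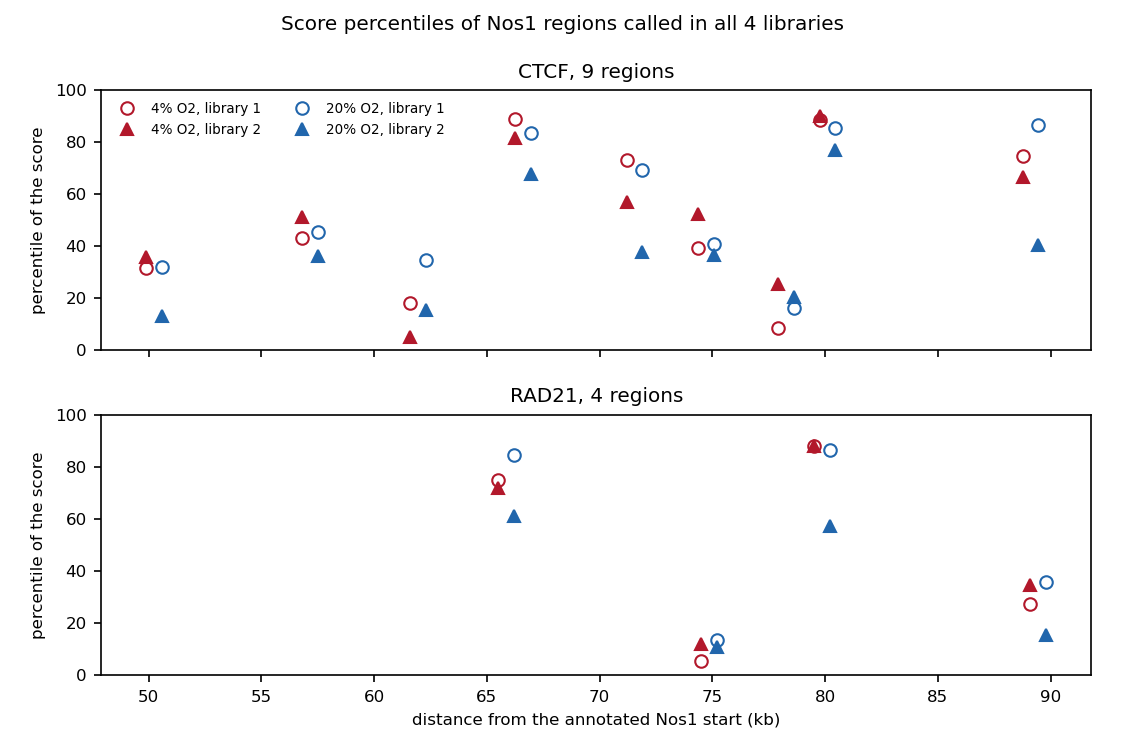
Percentile of the peak score (vertical axis) of Nos1 regions called in all 4 libraries, against distance from the annotated start in kb, for 9 CTCF regions (upper panel) and 4 RAD21 regions (lower panel); points are single libraries, with 4% O2 set slightly left of 20% O2. The CTCF region near 80 kb lies between 77.1 and 90.1 in every library, and the RAD21 region there between 57.4 and 87.9.

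The flank between Nos1 and the next protein-coding gene upstream, Ksr2, is 98.8 kb long and lies outside the 1 kb window; it was looked at after the values inside were seen. H3K9ac was called there in all 4 libraries at 86.7 to 83.9 kb, 78.0 to 76.7 kb, 76.5 to 74.8 kb and 31.3 to 24.8 kb before the start. The best score of the last of these was 26.8 and 42.4 at 4% O2, against 55.5 and 43.0 at 20% O2. POLR2S5 islands lay within 35.0 to 13.2 kb before the start in all 4 libraries, with 515 and 472 reads at 4% O2, against 45 and 670 reads at 20% O2. POLR2 islands over it held 340 and 344 reads at 4% O2, against no island and 354 reads at 20% O2. Farther out, within 89.6 to 82.8 kb before the start, POLR2 islands were called in all 4 libraries. They held 117 and 314 reads at 4% O2, against 63 and 211 at 20% O2. POLR2S2 islands lay within 87.6 to 32.4 kb before the start in all 4 libraries, with 544 and 2539 reads at 4% O2, against 81 and 982 at 20% O2. Within 32.4 to 10.2 kb before the start they held 411 and 802 reads at 4% O2, against 82 and 563 at 20% O2. Elongating polymerase was thus not called in the gene alone. A CTCF region at 30.5 to 29.0 kb before the start was also called in all 4, with scores of 438.1 and 121.4 at 4% O2, against 438.5 and 212.6 at 20% O2, and RAD21 had 159.1 and 136.7, against 82.2 and 208.2. CTCF regions at 86.1 to 85.8 kb and at 42.6 to 42.0 kb before the start were called in all 4 as well, with lower scores in each library. Nos1 is known to be transcribed from alternative first exons. No exon annotation was used here, so these calls were not assigned to a transcript.

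Over the 12 polymerase libraries, 13168 genes with islands in at least 6 of them and none shared with Nos1 were compared with it, as log2 of island reads per 1 M plus 1, centred on the mean of each antibody. The closest patterns were those of Morn3 (Pearson r = 0.97), Fndc8 (0.94), Star (0.94), Dgkb (0.93) and Ccdc73 (0.92). These are the extremes of many genes over 12 points that share libraries and depth, and they are given as a description.

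Nos1ap, the adaptor, lies on the minus strand at chr1:170315467-170589849, and its POLR2 islands were at its start. POLR2 islands held 216 and 449 reads at 4% O2, against 0 and 396 reads at 20% O2, all in 1 island a library that spanned the start. POLR2S5 islands held 230 and 363 reads at 4% O2, against 205 and 298 at 20% O2. Of these, 196 and 363 reads at 4% O2, against 121 and 298 at 20% O2, lay in the island over the start. The rest lay 67.4 kb or more from it, in library 1 of each level. Scaled POLR2S5 reads were 13.5 and 16.6 CPM at 4% O2, against 22.1 and 13.8 at 20% O2, and the levels overlapped (log2 ratio -0.25 ± 0.46 SE, edgeR adjusted p = 0.983). POLR2S2 islands held 93 and 0 reads at 4% O2, against 360 and 0 at 20% O2, in islands at least 29.4 kb from the annotated start, so elongating polymerase was called in library 1 of each level and in neither library 2. The RefSeq promoter table lists a second start, at position 170557110, which lay 1.09 kb from a POLR2S2 island in 4% O2 library 1 and inside an island of 47 reads in 20% O2 library 1. H3K9ac was called at the start in all 4 libraries, with scores of 14.6 and 41.2 at 4% O2, against 21.6 and 61.5 at 20% O2. The gene had 1 CTCF region and no RAD21 region in all 4 libraries.

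The cyclase subunits Gucy1a1 and Gucy1b1 lie next to each other on the minus strand of chromosome 3, at chr3:82092427-82145946 and chr3:82032004-82074711, 17.7 kb apart. Both carried H3K9ac at the start and POLR2S2 along the body. At Gucy1a1, POLR2S2 islands held 850 and 2283 reads over 52.6% and 100% of the gene at 4% O2, against 151 and 979 reads over 6.3% and 63.4% at 20% O2. At Gucy1b1, they held 1452 and 1839 reads over 100% and 100% of the gene at 4% O2, against 279 and 1178 reads over 17.8% and 82.7% at 20% O2. Both 4% O2 libraries thus covered Gucy1b1 from end to end, while the 20% O2 libraries left gaps. The share of all genes with such a contrast in cover was not computed. The POLR2S2 lists held 10.43 and 16.6 M island reads at 4% O2, against 4.87 and 9.7 M at 20% O2, and whether cover follows these totals was not tested.

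**Figure D3:**
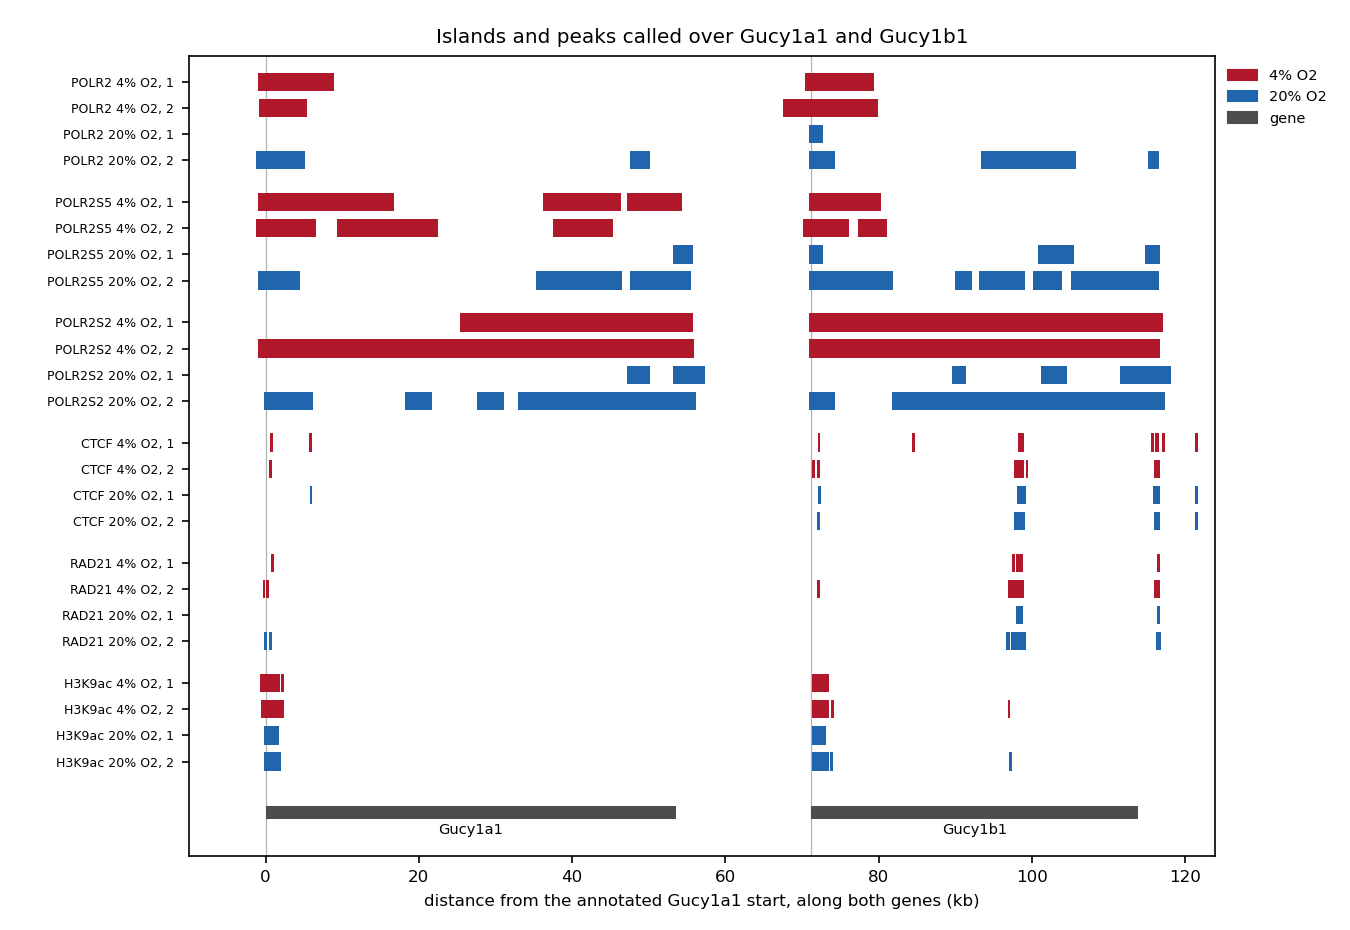
Islands and peaks called in each library over Gucy1a1 and Gucy1b1, 1 row per library, against the distance in kb from the annotated Gucy1a1 start along both genes, which are read left to right; bars are drawn at least 0.35 kb wide. POLR2S2 islands cover Gucy1b1 from end to end in both 4% O2 libraries and leave gaps in it at 20% O2, and the cover of Gucy1a1 overlaps between the levels. Scaled POLR2S2 reads overlap between the levels for both genes. The CTCF and RAD21 site inside Gucy1b1 is called in every library.

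Once scaled, neither ratio passed the test. POLR2S2 stood at 45.7 and 68.7 CPM for Gucy1a1 at 4% O2, against 18.3 and 57.8 at 20% O2, with a log2 ratio of 0.59 ± 0.67 (SE; edgeR adjusted p = 0.877). For Gucy1b1 it stood at 78.1 and 55.3 at 4% O2, against 33.9 and 69.5 at 20% O2, with a log2 ratio of 0.37 ± 0.53 (SE; edgeR adjusted p = 0.892). Leaving out the 20% O2 library of round 1, which held the fewest island reads, brought these ratios to 0 and -0.06, and as reads per kb of island they were -0.59 and -0.68, where the median of all genes was -0.49.

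POLR2S5 islands at Gucy1a1 held 1092 and 920 reads at 4% O2, against 49 and 723 reads at 20% O2. Scaled, they stood at 64 and 42 CPM at 4% O2, against 5.28 and 33.6 at 20% O2, and the levels did not overlap. The log2 ratio of 1.44 ± 0.87 (SE; edgeR adjusted p = 0.983) was the highest among the members, with 3.60 in round 1 and 0.32 in round 2, and 97.3% of all tested genes had a lower one. The low value of 49 reads lay in 1 island at the far end of the gene, and without that library the ratio was 0.62. Per kb of island it was -0.02, where the median of all genes was -0.29. The beta subunit went the other way for this form. POLR2S5 at Gucy1b1 held 488 and 542 reads at 4% O2, against 323 and 1050 at 20% O2, or 28.6 and 24.8 against 34.8 and 48.7 CPM, with no overlap of the levels. Its log2 ratio was -0.65 ± 0.43 (SE; edgeR adjusted p = 0.983), with -0.28 and -0.98 in rounds 1 and 2, and 0.04 per kb of island.

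POLR2 at Gucy1a1 held 365 and 361 reads at 4% O2, against 0 and 386 at 20% O2, and at Gucy1b1 360 and 572 reads, against 115 and 566. The Gucy1b1 values gave a log2 ratio of 0.05 ± 0.38 (SE; edgeR adjusted p = 0.991), with 0.55 and -0.36 in rounds 1 and 2. Some of the islands at the Gucy1a1 start also overlap the long noncoding gene Gm29921, and some of those in its body the microRNA gene Mir7010. The pair differed in CTCF. Gucy1b1 had a CTCF and RAD21 site 26.4 to 27.9 kb from its start in all 4 libraries, with CTCF percentiles of 67.2 and 77.5 at 4% O2, against 66.6 and 78.0 at 20% O2, whereas Gucy1a1 had no CTCF or RAD21 region called in all 4. H3K9ac at the starts went in opposite directions between rounds. The Gucy1a1 region differed by 31.9 and -29.7 percentile points in rounds 1 and 2, and the Gucy1b1 region by -29.9 and 18.9.

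**Figure D4:**
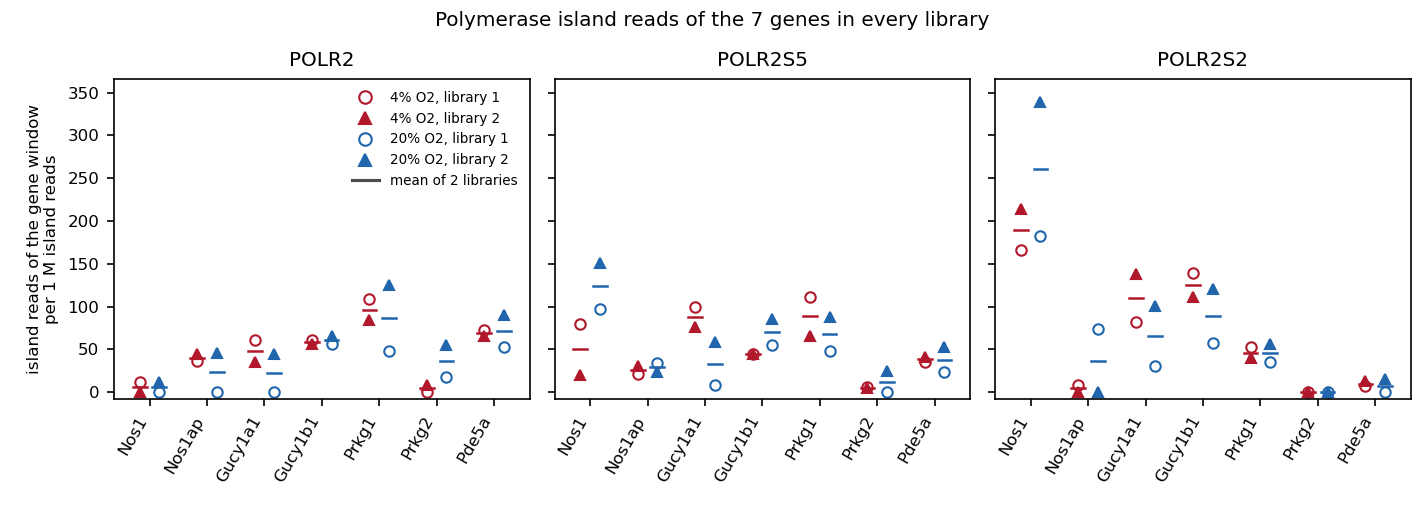
Island reads of each gene window per 1 M island reads of the library (vertical axis, linear, not divided by gene length) for POLR2, POLR2S5 and POLR2S2; circles are round 1, triangles round 2 and bars the mean of 2 libraries. Nos1 is near 0 for POLR2 and is the member with the most POLR2S2 reads in every library, and the 20% O2 circle is the lowest point of Gucy1a1 and of Pde5a in all 3 panels.

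Prkg1, the kinase gene on the minus strand at chr19:30564487-31765268, is 1200.8 kb long, and polymerase covered at most 2.3% of it in any library. Its POLR2 islands held 644 and 855 reads at 4% O2, against 100 and 1073 at 20% O2. Of these, 249 and 339 reads at 4% O2, against 100 and 333 at 20% O2, lay in the island over Cstf2t, a gene inside Prkg1. In the 20% O2 library of round 1 the Cstf2t island was the only island in Prkg1 for all 3 forms. The reads of Prkg1 outside it were 395 and 516 for POLR2 at 4% O2, against 0 and 740 at 20% O2, and 783 and 444 for POLR2S5, against 0 and 621. For POLR2S2 they were 144 and 258 at 4% O2, against 0 and 138 at 20% O2. This division was made after the values were seen. With the Cstf2t island kept, the log2 ratios of Prkg1 were 0.19 ± 0.64 for POLR2, 0.41 ± 0.54 for POLR2S5 and -0.10 ± 0.53 for POLR2S2 (SE; edgeR adjusted p = 0.977, 0.983 and 0.971). The rounds had opposite signs for all 3 forms, such as 1.59 and -0.70 for POLR2.

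At the Prkg1 start, POLR2 and POLR2S5 islands were called in all libraries but that of 20% O2 in round 1, and H3K9ac in all 4. Prkg1 held 11 CTCF regions and 7 RAD21 regions called in all 4 libraries, and all 7 overlapped CTCF. Of the CTCF regions, 4 were higher at 4% O2 in both rounds and 2 lower, beside 27.5% and 27.3% of all shared CTCF regions. Of the RAD21 regions, 2 were higher and 2 lower, beside 29.1% and 29.9%. The RAD21 region at 1099.5 to 1101.7 kb from the start had percentiles of 92.8 and 95.4 at 4% O2, against 93.8 and 93.5 at 20% O2. It was the strongest in every library but 4% O2 library 1, where the region at 920.8 to 923.2 kb stood at 92.9. H3K9ac was called in all 4 libraries at 14 regions of Prkg1. Of these, 7 had a lower percentile at 4% O2 in both rounds and 2 a higher one, beside 27.4% lower and 27.4% higher of the 39931 shared H3K9ac regions. The median difference was -18.84 points in round 1 and -1.77 in round 2, so most of it lay in round 1. The region at the start differed by -12.8 and -1.8 points. A lower region at 681.1 to 682.3 kb, by -58.3 and -11.2 points, and a higher one at 682.5 to 683.1 kb, by 22.9 and 4.2, overlap the islands over Cstf2t. Both are kept in these counts.

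Prkg2, the second kinase gene, lies at chr5:98929773-99037375, and it was the one member with no POLR2S2 island in any library. POLR2 islands held 0 and 88 reads at 4% O2, against 36 and 472 at 20% O2, and POLR2S5 islands 66 and 56 reads, against 0 and 305. All of them lay 4.8 to 24.6 kb from the lower coordinate of the gene, where H3K9ac had regions in all 4 libraries. The 20% O2 library of round 2 held the highest value for both forms, and no ratio was taken because 1 library each of POLR2 and POLR2S5 had no island. With each list trimmed to the length of the shortest, POLR2 was called in Prkg2 in both 20% O2 libraries and in neither 4% O2 library, the one such call among the members, beside 1.65% of the genes with a POLR2 call in the trimmed lists that were called at 1 level alone. The H3K9ac region at 5.6 to 6.9 kb had percentiles of 34.1 and 25.7 at 4% O2, against 78.7 and 41.2 at 20% O2, with differences of -44.6 and -15.5 points. It was chosen after its values were seen, as the 1 of 4 H3K9ac regions of Prkg2 that was lower in both rounds. The region at 11.4 to 11.7 kb was higher in both, by 1.3 and 13.6 points, and the other two differed by 2.0 and -15.1 and by -25.9 and 1.5 points. Prkg2 had 3 CTCF regions and 0 RAD21 regions in all 4 libraries.

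Pde5a, the phosphodiesterase gene, lies on the plus strand at chr3:122729158-122859374, and it had every mark but elongating polymerase at its start in all 4 libraries. POLR2 islands held 430 and 663 reads at 4% O2, against 108 and 780 at 20% O2, and POLR2S5 islands 393 and 497, against 138 and 650. POLR2S2 islands held 77 and 209 reads at 4% O2, against 0 and 149 at 20% O2, all at the start. A second pair of POLR2 and POLR2S5 islands, 68.8 to 74.4 kb from the start and over the noncoding gene 4930447N08Rik, was called in all libraries but that of 20% O2 in round 1. Scaled POLR2 reads were 65.3 and 53.9 CPM at 4% O2, against 35.2 and 82.4 at 20% O2 (log2 ratio 0.01 ± 0.49 SE, edgeR adjusted p = 0.998). Scaled POLR2S5 reads were 23 and 22.7 at 4% O2, against 14.9 and 30.2 at 20% O2 (log2 ratio 0.02 ± 0.50 SE, edgeR adjusted p = 0.999). In both forms the 2 values at 4% O2 lay between those at 20% O2.

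All 3 CTCF regions of Pde5a called in all libraries, at the start, at 0.9 to 2.0 kb and at 54.1 to 55.9 kb, overlapped RAD21 regions of all libraries. The region over the promoter had CTCF percentiles of 86.1 and 69.1 at 4% O2, against 73.7 and 82.3 at 20% O2, and RAD21 percentiles of 18.6 and 38.4, against 21.5 and 59.6. Pde5a was the member whose peak counts did not overlap between levels. CTCF peaks numbered 9 and 8 at 4% O2, against 7 and 6 at 20% O2, and H3K9ac peaks 7 and 10, against 5 and 6. Peak counts of the levels did not overlap for 10.2% of genes with a CTCF peak, 4.69% with RAD21 and 12.3% with H3K9ac, so 1, 0 and 1 of 7 members is near the background. The mean difference for Pde5a, 2 CTCF peaks and 3 H3K9ac peaks, was 1 for each with peaks of a −log10 q of at least 5, and 1 for H3K9ac with lists of equal length. An exact permutation test of 2 against 2 libraries cannot give a two-sided p under 0.333.

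**Figure D5:**
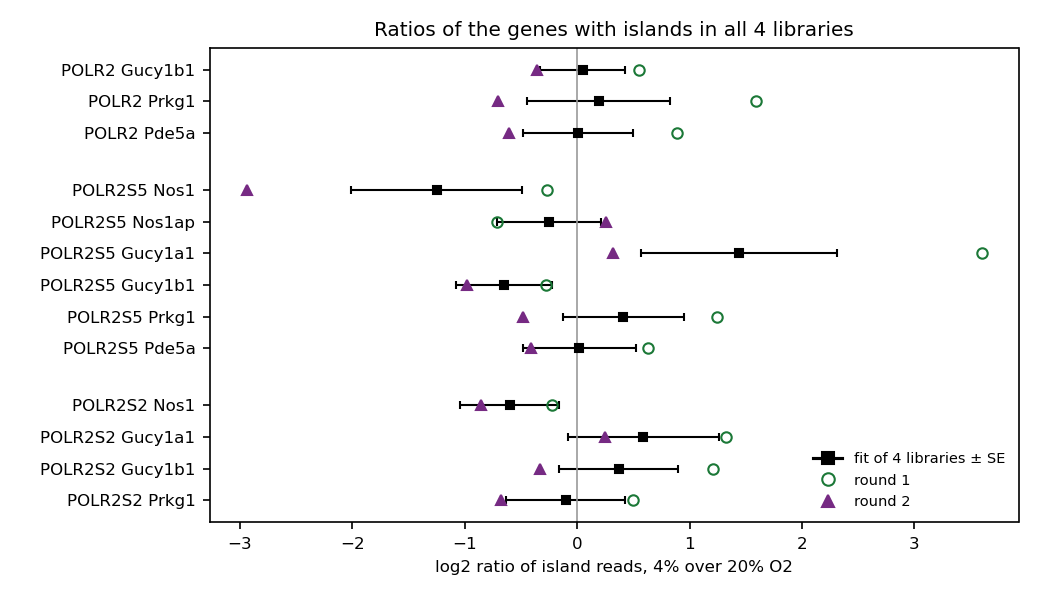
Log2 ratio of island reads, 4% over 20% O2 (horizontal axis), for the 13 pairs of polymerase form and gene with islands in all 4 libraries; squares are the edgeR fit with its SE, circles and triangles the ratios within rounds 1 and 2. The rounds lie on opposite sides of 0 for 8 of the 13, and Nos1 lies under 0 in both rounds for POLR2S5 and POLR2S2.

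Across the members, no ratio passed edgeR at an adjusted p of 0.05. This held for 3 members with POLR2, 6 with POLR2S5 and 4 with POLR2S2, and the share of all genes called was 0% for each of the 3 forms, without the replicate block as with it (0%). Unadjusted p lay under 0.05 for 319 of 9245, 409 of 11534 and 583 of 9364 genes, and for no member. A ratio that did not pass is not shown to be equal between the levels. The median log2 ratio of the tested members was 0.05, -0.12 and 0.14 for POLR2, POLR2S5 and POLR2S2, beside 0.01, 0.01 and -0.02 over all genes tested.

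Both rounds pointed the same way for 0 of 3, 3 of 6 and 2 of 4 members. These were Nos1 and Gucy1b1 below 0 and Gucy1a1 above 0 for POLR2S5, and Nos1 below and Gucy1a1 above 0 for POLR2S2. Levels did not overlap for 0 of 3 members with POLR2, where 16% of all genes lay higher and 15.7% lower at 4% O2. For POLR2S5, 1 member lay higher and 2 lower, beside 17.4% and 14.2% of genes, and for POLR2S2, 0 lay higher and 1 lower, beside 19.1% and 17.8%. No member was called in both libraries of 1 O2 level and in neither of the other with any antibody. Of the genes with a call, 0.68% met that rule for POLR2, 0.637% for POLR2S5, 2.73% for POLR2S2, 0.689% for CTCF, 1.89% for RAD21 and 0.416% for H3K9ac. All 7 members had a call of each antibody in at least 1 library but for Prkg2 with POLR2S2, beside 63.2%, 64.5%, 61%, 68.3%, 55.9% and 64.8% of all genes for the antibodies in the same order.

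The wider pathway was read from 51 names, of which 50 distinct genes were found, among them other cyclases, phosphodiesterases, arginine transporters and enzymes, cofactor synthesis and binding partners of NOS1. None passed in either direction among the 29 tested for POLR2, 34 for POLR2S5 and 26 for POLR2S2. Ratios lay above 0 for 14, 20 and 14 of them, with medians of -0.03, 0.19 and 0.04, beside the medians of all genes given above. By the naming rule, genes with the highest and lowest ratios of each form are given. Nosip, whose product binds nitric oxide synthases, had 908 and 3308 POLR2 reads at 4% O2, against 151 and 462 at 20% O2 (log2 ratio 2.05 ± 0.51 SE, edgeR adjusted p = 0.948). Its POLR2S2 reads were 1530 and 11744 at 4% O2, against 436 and 918 (log2 ratio 2.02 ± 0.74 SE, edgeR adjusted p = 0.756). Nosip was above 0 in both rounds for both forms, with 1.49 and 2.46 for POLR2 and 0.64 and 2.71 for POLR2S2.

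Dlg4, the scaffold of the postsynaptic density that binds NOS1, had a POLR2 log2 ratio of 1.76 ± 0.71. Slc7a1, an arginine transporter, had -1.80 ± 0.56 for POLR2 and -0.97 ± 0.40 for POLR2S2, below 0 in both rounds for each. Pde10a, another phosphodiesterase, had 1.03 ± 0.41 for POLR2S5 and 1.45 ± 0.36 for POLR2S2, above 0 in both rounds for each. Its POLR2S2 reads were 3365 and 6781 at 4% O2, against 525 and 1300 at 20% O2. Prmt1, an arginine methyltransferase, had 1.15 ± 0.65 for POLR2S5. Npr2, a receptor guanylate cyclase, had -0.64 ± 0.32 for POLR2 and -0.89 ± 0.60 for POLR2S5, and the phosphodiesterase gene Pde2a -0.94 ± 0.52 for POLR2S5 (SE; edgeR adjusted p of 0.628 to 0.983 for these genes). Rounds 1 and 2 gave -0.58 and -0.72 for POLR2 at Npr2, but 0.13 and -1.53 for POLR2S5. At Pde2a they gave -0.12 and -1.68, and Dlg4 and Prmt1 were above 0 in both rounds. Of the other synthase genes, Nos2 had a polymerase island in 1 library of 12, and Nos3 had islands in 3 of 4 libraries for each form and H3K9ac in all 4.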

How the data were processed

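The series holds 30 samples of mouse N1E115 cells, of which 24 immunoprecipitated libraries were used. Reads were placed on mm10; BWA, Picard, SICER and MACS2 are the tools listed, per the submitters' processing notes, with versions not given in the sources used here. The deposited SICER lists give a whole-number read count per island, not scaled to the library. The deposited MACS2 lists have an unnamed score, taken from its range to be −log10 of a q-value. The depth of the libraries is unknown: island reads are not all reads, and no counting interval was computed. For each of 12 second libraries, a list held under 2 labels was counted once.

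Reads of islands that overlap a gene window (1 kb added to each side, overlap from 1 bp) were summed for protein-coding genes of GRCm38.p6, and genes with an island in all 4 libraries of a form entered edgeR 4.0.16 in R 4.3.3 (quasi-likelihood test, TMM, groups by O2 level, Benjamini-Hochberg adjustment over all genes tested). The test was run first on simulated counts, drawn with a single spread shared by all genes and with no effect of the round. The data differ from such counts in that same-numbered libraries were correlated, as given below. For POLR2 it recovered 4% of the genes set to change 2-fold and 20% of those set to change 4-fold. For POLR2S5 it recovered 0% and 0%, and for POLR2S2 0% and 1%. In such counts, changes of these sizes thus rarely passed, and a ratio that did not pass says little about them. Libraries 1 and 2 were sequenced on different flow cells, per the file headers, so the number marks a round; deviations of same-numbered libraries correlated at 0.32, 0.39 and 0.32 for POLR2, POLR2S5 and POLR2S2 across genes, and the fit with the number as a block is an alternative. No label ties the 2 libraries of a group to separate cultures, so p-values measure the spread between libraries, which may be technical. DESeq2 1.42.0 was another alternative. For CTCF in 20% O2 library 1, an unexplained code stands in the list's header, and its label was followed.

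The members and gene lists were chosen with earlier results of these data known. All 7 members are named; of the other pathway genes those past an adjusted p of 0.05, or else the 2 highest and 2 lowest ratios per form, and the 5 genes most like Nos1. A result that this rule would name is not reported here.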

Additional observations from a re-analysis of the deposited data

How the results depend on the processing

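Nos1 kept its direction under all 11 alternatives of the fit, with log2 ratios of -2.71 to -0.45 for POLR2S5 and -0.95 to -0.05 for POLR2S2. The -0.45 was that of reads per kb of island, where the median of all genes was itself under 0, at -0.29. For POLR2S2 the same setting gave -0.84, beside a median of -0.49. Over the alternatives, 31 member ratios turned their sign, 112 kept it, and none passed the test. As reads per kb of island, which moved the median of all genes to -0.54, -0.29 and -0.49, the ratios turned to -1.29, -0.94 and -0.88 for POLR2 at Gucy1b1, Prkg1 and Pde5a, to 0.04, -0.02, 0.04, -0.48 and -0.45 for POLR2S5 at Nos1ap, Gucy1a1, Gucy1b1, Prkg1 and Pde5a, and to -0.59 and -0.68 for POLR2S2 at Gucy1a1 and Gucy1b1. Without TMM, POLR2 at Gucy1b1 and Pde5a turned to -0.06 and -0.06 and POLR2S2 at Prkg1 to 0.02. With reads split by overlap, POLR2 at Gucy1b1 was -0.02 and POLR2S2 at Prkg1 0.03. Without the 1 kb, POLR2 at Pde5a was -0.01, and with DESeq2 POLR2S5 at Pde5a was -0.01. Leaving out 1 library at a time gave -0.20 to 0.43, -0.40 to 1.36 and -0.42 to 0.76 for POLR2 at Gucy1b1, Prkg1 and Pde5a. For POLR2S5 it gave -0.55 to 0.10 at Nos1ap, -0.16 to 0.83 at Prkg1 and -0.43 to 0.62 at Pde5a, and for POLR2S2 0 to 1.71 at Gucy1a1, -0.06 to 1.03 at Gucy1b1 and -0.41 to 0.29 at Prkg1. The cause was not tested.

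With edgeR no gene was called for any form, and the replicate block changed no call (0 genes for each form), while DESeq2 called 114, 258 and 160 genes, none of them a member. Without 4% O2 replicate 1, edgeR called 38 genes for POLR2 and 52 for POLR2S5, and the range over left-out libraries was 0 to 38, 0 to 52 and 0 to 0. The mean difference in CTCF peaks at Nos1, 3.5 in all, was -7 in round 1 and 14 in round 2 with the replicate block, and -2.5 to 9.5 without 1 library at a time. That in RAD21 peaks, also 3.5, was -0.5 with lists of equal length and -1 to 8 without 1 library at a time. With lists of equal length, 1 member (Prkg2 with POLR2) was called at 20% O2 alone. Total reads per library are not known, so what depth limits was not tested.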

Other observations

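Of the 50 other pathway genes, 20 had islands in all 12 polymerase libraries, beside 33.4% of all protein-coding genes, among them Txnrd1, the cofactor enzyme genes Gch1 and Pts, and Adh5, which breaks down S-nitrosoglutathione. At the other end, 8 had none in any of the 12, beside 34.1% of all genes. These were the glutamate receptor subunits Grin2a and Grin2b, the receptor cyclase Gucy2c, the phosphodiesterases Pde1a, Pde3a and Pde3b, the arginine transporter Slc7a2, and Nostrin, whose product binds an endothelial synthase. CTCF was called in all 4 libraries at 7 of these 8, Grin2a being the exception with 2, beside 14.2% of all genes with no polymerase island, which were not matched to them for length. The obligate partner subunit Grin1 had POLR2S5 and POLR2S2 islands in all 4 libraries and POLR2 islands in 3. These genes were singled out after their values were seen.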
